A study of Mus musculus with 2 samples.

Results

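The respiratory chain genes described here are the transcripts that encode the subunits of complexes I to V of the inner mitochondrial membrane, together with the electron carrier cytochrome c. They were chosen by symbol alone: names of the families Nduf, Sdh, Uqcr, Cox (4 to 8) and Atp5, the gene Cycs, and every gene whose name begins with mt-. The rule found 96 of the 32285 genes in the count matrices. Of these, 83 are encoded in the nucleus and 13 in the mitochondrial genome. The nuclear members comprise 35 genes of complex I, 4 of complex II, 8 of complex III, 18 of complex IV (Ndufa4, counted here with the oxidase, among them), 17 of complex V and Cycs. The mitochondrial members comprise 7 genes of complex I, 1 of complex III, 3 of complex IV and 2 of complex V.

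Whole pituitaries from male mice of the C57BL/6 strain were dissociated and profiled as single cells by droplet RNA-seq with 3′ capture, which counts molecules by unique molecular identifiers (UMIs). One library came from 10 glands of young mice aged 2 months and the other from 10 glands of old mice aged 20 months. The glands were pooled before capture, so each age is 1 sample, no animal can be told apart, and differences between the ages have no replicate check. The values for both libraries are therefore given side by side, without a test; every interval is an exact 95% interval that covers counting error only. Age and library cannot be told apart in this design.

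Electrons from NADH enter the chain at complex I and those from succinate at complex II, pass through complex III and cytochrome c to complex IV, where oxygen is reduced, and the proton gradient that results drives ATP synthesis by complex V. Complexes I, III, IV and V are built from subunits of both genomes, whereas complex II and cytochrome c are entirely nuclear. The mitochondrial genes are transcribed as long precursors of both strands, which are then cut, and most of the products are polyadenylated. The level counted for a gene therefore reflects processing and decay as well as transcription. Endocrine cells of the pituitary make and secrete large amounts of peptide hormone, and ATP from this chain supports that work.

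The files hold 154510099 UMIs over all barcodes in the young library and 138427393 in the old. After filters 8531 young and 9017 old barcodes were kept, of which 26 barcode sequences occurred in both libraries. One cluster, with 1 young and 5545 old barcodes, had the profile of the empty droplets and was set aside as free RNA. The other clusters were named from marker genes. A total of 10 classes had at least 50 cells in each library and were compared: somatotroph-like (4318 young and 1331 old cells), corticotroph-like (1250 and 306), stem cell-like (975 and 280), macrophage-like (750 and 414), lactotroph-like (373 and 266), T or NK cell-like (147 and 169), B cell-like (124 and 83), monocyte-like (94 and 80), endothelial cell-like (85 and 78) and pituicyte-like (52 and 88). Every detected marker stood higher in its own class than in the other cells in both libraries for 9 of the 10 classes. The exception was the lactotroph-like class, where 3 of 4 markers did and Edn3 did not. Free RNA was estimated at 917 UMIs per young and 1486 per old immune cell. These amounts compare with median totals per cell of 2874 UMIs in young B cell-like, 5083 in old lactotroph-like and 8627 in old monocyte-like cells.

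Levels are given as CPM, the UMIs of a gene divided by the total of the class and scaled to 1000000, after 7 pituitary hormone genes and the 13 mitochondrial genes were taken out of that total, or as a percentage of all UMIs where so stated. A 3′ count is not scaled to transcript length, so levels are compared between classes and libraries for 1 gene, not between genes. A gene was counted as measured in a class when it had at least 50 UMIs over both libraries. A difference between the ages was counted as large at 1.5-fold.

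Where the genes lie bears on what a count can separate. In the mouse mitochondrial genome (GRCm38, chromosome M, GENCODE annotation) neighbouring coding regions overlap at 3 places where both genes are members with a shared stretch of at least 7 bases. These stretches are shown because 4 of the 6 genes concerned carry the main difference between the ages. Capitals mark the shared bases, lower case the 14 bases before them, and all are given 5′ to 3′ on the plus strand. Whether counting used strand is not given in the sources used here, so reads inside an overlap cannot be told apart.
mt-Atp8 and mt-Atp6, chrM:7927-7969 shared, both on the plus strand: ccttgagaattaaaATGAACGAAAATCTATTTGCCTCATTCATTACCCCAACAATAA
mt-Nd4l and mt-Nd4, chrM:10167-10173 shared, both on the plus strand: ctcaacctactacaATGCTAA
mt-Nd5 and mt-Nd6, chrM:13552-13565 shared, on opposite strands: tatcttatactcaaTTAATCTCGAGTAA
The coding region of mt-Nd5 spans chrM:11742-13565 on the plus strand and that of mt-Nd6 spans chrM:13552-14070 on the minus strand. mt-Nd6 was the only one of the 13 on the minus strand. Its 519 bases held 22.2% A on the coding strand, with no run longer than 3, against 34.3% A and a longest run of 7 for mt-Nd5.

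Nuclear members were matched by symbol to RefSeq promoters (GRCm38.p6), each running from 250 bases before to 50 bases after the annotated start; 67 of 83 had an entry. Cox6b1 and Cox6b2 are shown because this isoform pair of complex IV differed sharply between cell classes, and Atp5g1, Atp5g2 and Atp5g3 because these 3 genes encode the same mature subunit c of the ATP synthase ring and only the first differed by 1.5-fold between the ages in somatotroph-like cells. Capitals mark matches, on either strand, to the core letters of 4 factors known from respiratory genes.
Cox6b1, chr7:30626065-30626364, minus strand, 17 CpG: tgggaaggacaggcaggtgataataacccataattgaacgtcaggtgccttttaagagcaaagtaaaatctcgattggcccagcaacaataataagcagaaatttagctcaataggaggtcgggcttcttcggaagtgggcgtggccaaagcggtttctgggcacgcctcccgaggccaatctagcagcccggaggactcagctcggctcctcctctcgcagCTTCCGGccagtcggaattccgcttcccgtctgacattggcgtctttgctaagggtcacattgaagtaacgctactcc
Cox6b2, chr7:4753045-4753344, minus strand, 10 CpG: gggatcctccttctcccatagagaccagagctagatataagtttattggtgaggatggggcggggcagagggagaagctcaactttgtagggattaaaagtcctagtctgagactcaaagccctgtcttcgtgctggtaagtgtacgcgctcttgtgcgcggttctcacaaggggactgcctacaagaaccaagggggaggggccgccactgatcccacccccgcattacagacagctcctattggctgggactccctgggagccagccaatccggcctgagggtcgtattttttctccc
Atp5g1, chr11:96075582-96075881, minus strand, 16 CpG: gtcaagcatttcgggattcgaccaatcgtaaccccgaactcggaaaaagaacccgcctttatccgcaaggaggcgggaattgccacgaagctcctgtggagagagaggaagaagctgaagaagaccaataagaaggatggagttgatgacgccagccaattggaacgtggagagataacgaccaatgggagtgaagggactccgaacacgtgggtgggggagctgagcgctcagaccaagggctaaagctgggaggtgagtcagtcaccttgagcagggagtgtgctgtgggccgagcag
Atp5g2, chr15:102670998-102671297, minus strand, 20 CpG: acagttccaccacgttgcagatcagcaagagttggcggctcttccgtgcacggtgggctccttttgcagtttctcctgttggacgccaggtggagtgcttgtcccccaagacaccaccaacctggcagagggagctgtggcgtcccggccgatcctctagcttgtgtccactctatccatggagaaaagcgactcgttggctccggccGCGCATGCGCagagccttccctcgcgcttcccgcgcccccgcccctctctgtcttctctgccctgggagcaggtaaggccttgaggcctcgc
Atp5g3, chr2:73911277-73911576, minus strand, 21 CpG: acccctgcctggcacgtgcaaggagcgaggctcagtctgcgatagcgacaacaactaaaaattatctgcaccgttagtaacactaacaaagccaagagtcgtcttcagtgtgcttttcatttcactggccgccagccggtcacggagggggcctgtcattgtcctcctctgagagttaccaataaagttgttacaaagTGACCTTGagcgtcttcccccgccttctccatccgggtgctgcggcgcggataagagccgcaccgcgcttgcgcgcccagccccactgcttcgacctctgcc
The letters searched were GCATGCGC for NRF1, CCGGAAG for ETS factors such as GABP, AAGATGGC for YY1 and CAAGGTCA for the oestrogen-related receptors. The match in Cox6b1 is that of the ETS letters, the one in Atp5g2 is NRF1 (read on both strands, which overlap) and the one in Atp5g3 is the receptor motif. None of the 4 occurred in the windows of Cox6b2 and Atp5g1.

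Over all member promoters the NRF1 letters occurred in 11 of 67 (16.4%), against 3.61% of the 17492 protein-coding promoters. The genes with that match included Cycs, Cox6a1, Sdhb, Uqcrc1 and Ndufa8. ETS letters occurred in 16 (23.9%, against 11.9%), those of YY1 in 8 (11.9%, against 3.22%) and those of the oestrogen-related receptors in 4 (5.97%, against 1.34%). Member promoters held a median of 19 CpG dinucleotides and all promoters a median of 13. These matches describe the letters in the window and were not tested for binding.

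Among the 10 compared classes, respiratory chain transcripts were most abundant in pituicyte-like cells, glial cells of the posterior lobe, and in corticotroph-like cells. The class with the lowest nuclear sum depended on the scale: it was macrophage-like in CPM, and somatotroph-like, with 1.03% and 1.09% of all UMIs beside 1.15% and 1.13% in macrophage-like cells, where the hormone transcripts stay in the total. Young pituicyte-like cells had 9.59% mitochondrial UMIs and old ones 7.51%. Corticotroph-like cells, the producers of ACTH, followed with 5.94% and 5.47%, lactotroph-like cells with 5.28% and 5.74%, and stem cell-like cells with 5.34% and 5.02%. Somatotroph-like cells, the growth hormone producers, stood at 3.83% and 3.79%. Of the immune classes, B cell-like cells lay close to that, with 3.80% and 4.54%, and the others lower: T or NK cell-like cells had 2.88% and 3.02%, macrophage-like cells 2.69% and 2.63%, and monocyte-like cells 2.33% and 2.68%. Counting error was small beside these differences, as for the interval from 9.50% to 9.69% in young pituicyte-like cells, but the spread between animals is unknown. The order of the 10 classes was similar in both libraries (Pearson r = 0.962, Spearman rho = 0.915 over 10 classes, a description, since classes of 1 library share its depth and free RNA).

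Among the 10 compared classes, the nuclear members were also highest in pituicyte-like cells. The orders of the 2 genomes differed in part (Spearman rho of CPM 0.733 in the young and 0.576 in the old over 10 classes, a description). Gonadotroph-like cells, with only 64 young and 36 old cells, stood at 31311 and 28287 nuclear CPM. That lay above pituicyte-like cells in the young and just below them in the old library. The nuclear sum was 28762 CPM in young and 28448 CPM in old pituicyte-like cells, 23776 and 24594 CPM in corticotroph-like cells, 19787 and 17627 CPM in somatotroph-like cells, and 12737 and 12529 CPM in macrophage-like cells. Old lactotroph-like cells, among the richest in mitochondrial UMIs, had 16147 nuclear CPM, beside 16350 in T or NK cell-like and 17597 in monocyte-like cells of that library. The classes therefore spanned a smaller range for nuclear than for mitochondrial members. Mitochondrial UMIs per nuclear member UMI ranged from 1.43 in monocyte-like to 3.93 in pituicyte-like cells of the young library, and from 1.65 in monocyte-like to 4.32 in lactotroph-like cells of the old one. Melanotroph-like cells of the intermediate lobe, with only 44 young cells, had the highest value of all classes with cells in both libraries, 6.07 and 6.23. Their mitochondrial share of all UMIs was 8.53% and 7.73%, in the old library above that of pituicyte-like cells. Classes rich in mitochondrial UMIs were also rich in Malat1, a nuclear long non-coding RNA (r = 0.833 for young and 0.796 for old classes, n = 10, a description). Malat1 took 4.92% and 5.43% of UMIs in pituicyte-like cells and 1.63% and 2.14% in monocyte-like cells, and its part in the order was not tested.

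**Figure D1:**
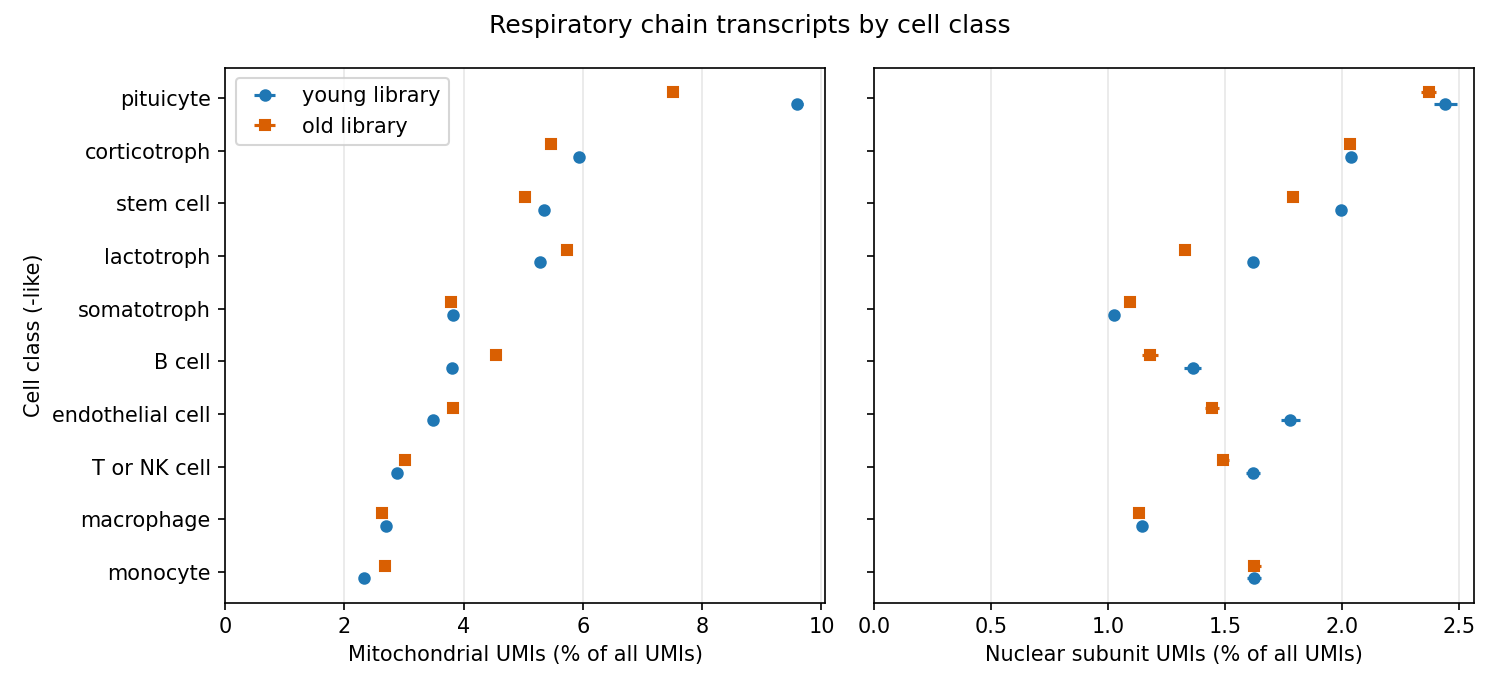
Mitochondrial members (left) and nuclear members (right) as a percentage of all UMIs for each of the 10 compared classes, with 1 point per library and bars for the exact 95% counting interval. Pituicyte-like cells had 9.59% and 7.51% mitochondrial UMIs, whereas monocyte-like cells had 2.33% and 2.68%.

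The limit of 15% mitochondrial UMIs per cell, a usual filter for damaged cells, took an unequal share from the classes. Without the limit, 70.2% of young and 43.9% of old melanotroph-like cells lay above it, as did 44.3% and 33.9% of pituicyte-like cells and 30.3% and 10.8% of lactotroph-like cells. Only 0.803% of young and 0.243% of old macrophage-like cells did. The mitochondrial percentage of pituicyte-like cells without the limit was 13.7% in the young and 10.2% in the old. A limit set on mitochondrial UMIs takes more cells from classes rich in them by construction, but the order was not strict. Young stem cell-like cells, at 5.44% mitochondrial UMIs, had 2.44% of cells above it. Young somatotroph-like cells, at 4.27%, had 10.4%.

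Among nuclear members with at least 50 UMIs in the highest class in each library, the widest range between classes was that of Ndufc2, an accessory subunit of complex I; the tissue isoforms described next fall outside this limit. It stood at 584 CPM in young and 478 CPM in old pituicyte-like cells, and at 132 and 96.4 CPM in T or NK cell-like cells, a 4.68-fold range of the mean of both libraries. Ndufa12 spanned 4.35-fold and Cox6c, a small subunit of complex IV, 3.78-fold, from 1186 and 1265 CPM in pituicyte-like cells to 294 and 357 CPM in macrophage-like cells. The other 7 genes of the 10 with the widest range were Ndufc1, Uqcr11, Ndufs5, Ndufa4, Ndufb3, Ndufv3 and Ndufb4, with 3.27-fold to 3.52-fold ranges. By the mean of both libraries corticotroph-like cells were highest for Ndufv3 and Ndufb4, and pituicyte-like cells for the other 8. In single libraries Ndufa4 was higher in young stem cell-like (714 CPM) than in young pituicyte-like cells (680 CPM), and Ndufb4 higher in old pituicyte-like (393 CPM) than in old corticotroph-like cells (385 CPM). In both libraries the higher class stood above the lower for each of the 10 genes.

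Complex IV has isoform pairs, and these separated the classes far more than the common subunits did. Cox6b2, known as the testis isoform of subunit VIb, was found in stem cell-like, pituicyte-like, fibroblast-like and proliferating cell-like cells, and below the level of empty droplets in somatotroph-like, lactotroph-like and corticotroph-like cells. It had 41.1 CPM in young and 36.4 CPM in old stem cell-like cells (300 and 87 UMIs), 47.7 and 51.1 CPM in pituicyte-like cells (16 and 38 UMIs), and 134 and 127 CPM in fibroblast-like cells (20 and 36 UMIs). The proliferating cell-like class, with 146 young cells and 1 old cell, had 73.6 CPM in the young (58 UMIs, 19.3% of the pair), while 37.9% of its UMIs were hormone transcripts. In somatotroph-like cells it stood at 0.938 and 0.627 CPM (26 and 5 UMIs). The level of Cox6b2 in empty droplets was 12 and 10.7 CPM, so part or all of the somatotroph-like value may be free RNA. Of all UMIs of the pair, Cox6b2 made up 9.36% in young and 8.59% in old stem cell-like cells, 29.4% and 24.2% in fibroblast-like cells, and 0.323% and 0.220% in somatotroph-like cells.

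The ages overlapped within counting error for these shares. In fibroblast-like cells the exact Clopper-Pearson interval of the Cox6b2 share ran from 19.0% to 41.7% in the young and from 17.5% to 31.8% in the old. Cox6b1, the common isoform, was at 289 CPM in young and 284 CPM in old somatotroph-like cells. Young corticotroph-like cells held 37 Cox6b2 UMIs and old ones 1, at totals that differ between the libraries (4.8 and 0.357 CPM). Both lay below the level in empty droplets, but free RNA is only part of a cell's UMIs, so this does not place them at background. Here the share of the pair did not overlap, at 1.38% (0.975% to 1.90%) in the young and 0.0866% (0.00219% to 0.481%) in the old. Old monocyte-like cells held 16 UMIs (21.7 CPM) and young ones 1 (1.58 CPM). Their shares of the pair did not overlap either and differed the other way. They were 0.395% (0.0100% to 2.18%) in the young and 6.04% (3.49% to 9.62%) in the old.

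Cox4i2, the isoform of subunit IV known from lung and from response to low oxygen, had a narrower range of classes. Fibroblast-like cells had 53.8 and 52.9 CPM (8 and 15 UMIs) and stem cell-like cells 8.63 and 6.69 CPM (63 and 16 UMIs). Somatotroph-like cells held 1 UMI in the young library and 0 in the old, where a count of 0 allows up to 0.376 CPM. The common isoform Cox4i1 stood at 727 and 603 CPM there. Cox7a1, a heart and muscle isoform, was seen in stem cell-like cells at 8.35 and 8.36 CPM. There it made up 2.50% and 2.60% of its pair with Cox7a2. In the small gonadotroph-like class the share was 4.02% in the young (15 UMIs, 2.27% to 6.55%) and 0.465% in the old (1 UMI, 0.0118% to 2.56%). Young pituicyte-like cells had 0 CPM of it and old ones 12.1 CPM. Its level in empty droplets of at most 100 UMIs was 5.08 and 6.36 CPM, and the part of free RNA in these values was not tested. Cox8b, another muscle isoform, was highest in corticotroph-like cells at 4.93 CPM in the young (38 UMIs) and 10.3 CPM in the old (29 UMIs), a ratio of 2.10 (1.2 to 3.49). Cox6a2 did not pass 4 CPM in any of the 10 classes. Cox8c had at most 2 UMIs per class and library.

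**Figure D2:**
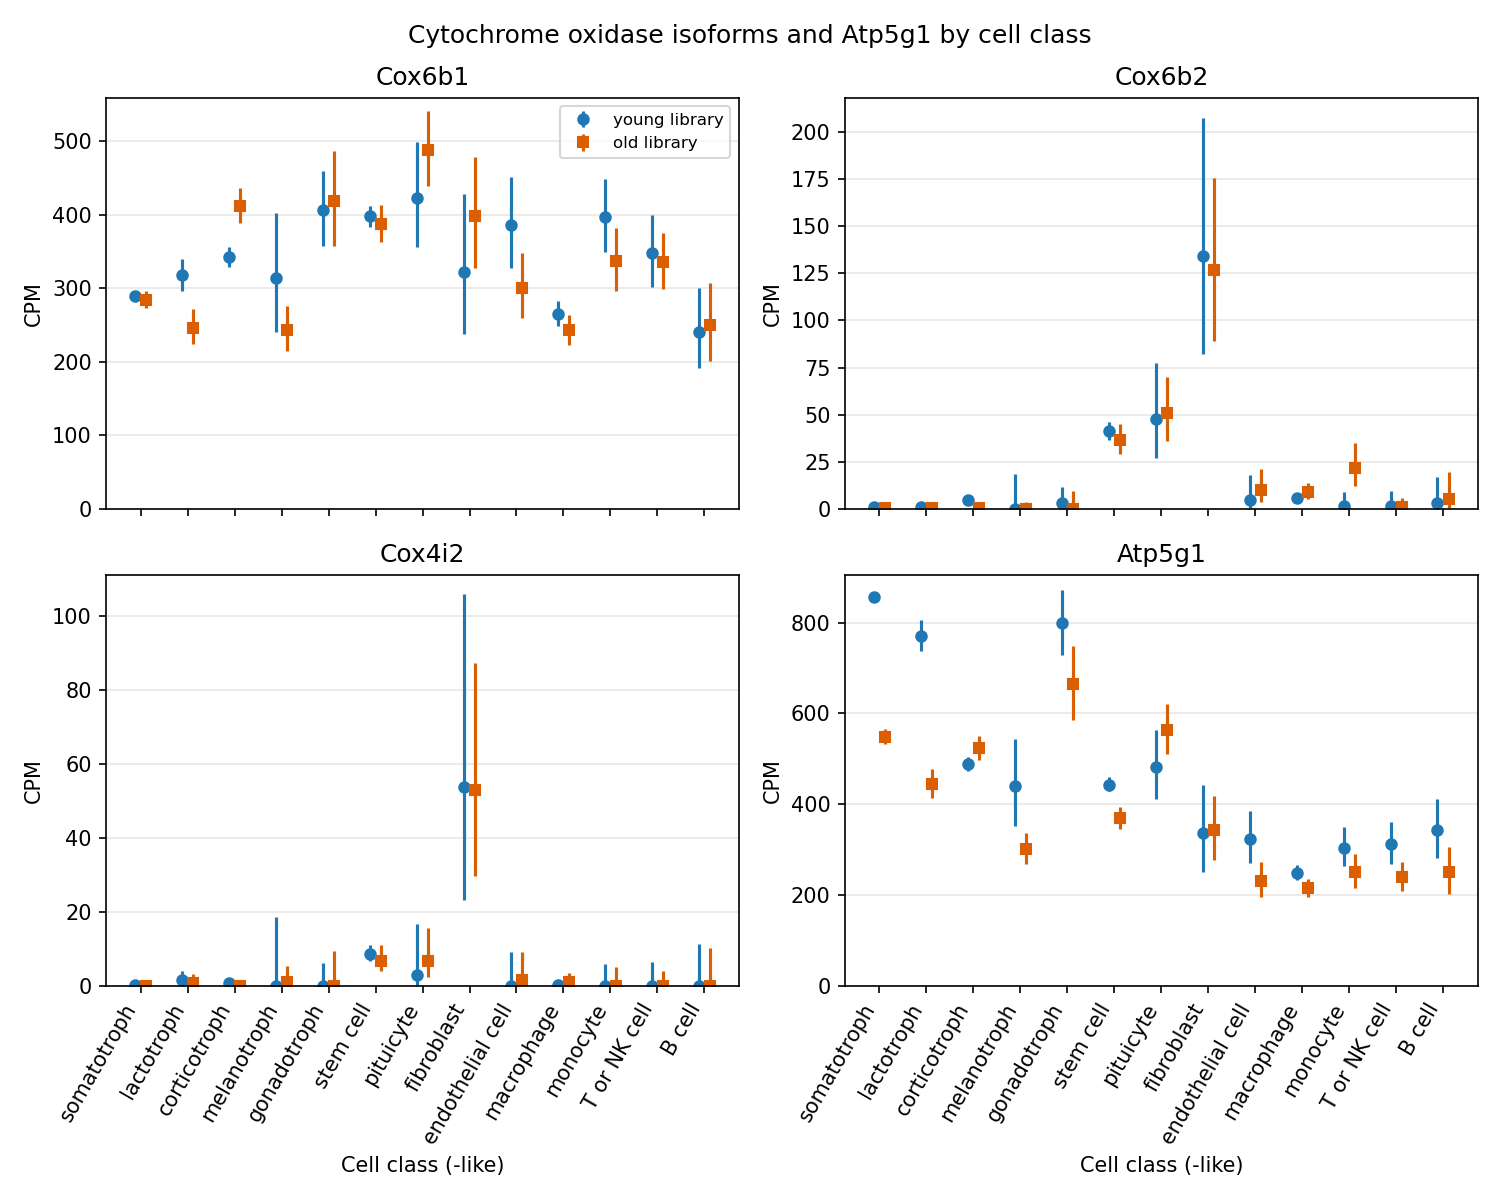
CPM of Cox6b1, Cox6b2, Cox4i2 and Atp5g1 by cell class, with young and old points and bars for the exact 95% counting interval. Cox6b2 stood at 41.1 and 36.4 CPM in stem cell-like cells and at 0.938 and 0.627 CPM in somatotroph-like cells.

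Between the ages, the difference present in every class was in the make-up of the mitochondrial transcripts, not in their sum. Of all mitochondrial UMIs, the genes mt-Nd4, mt-Nd4l, mt-Nd5 and mt-Nd6, which encode core membrane subunits of complex I and lie next to each other in the mitochondrial genome, took a higher share in the old library in 10 of 10 classes. mt-Co1, the catalytic subunit of complex IV, did so too, by less. mt-Co3 and mt-Co2, also of complex IV, took a lower share in 10 of 10. The median ratio of shares over the classes, old over young, was 2.59 for mt-Nd6 (1.77 to 4.85), 1.83 for mt-Nd5 (1.33 to 2.06), 1.82 for mt-Nd4l (1.1 to 2.05), 1.32 for mt-Nd4 (1.28 to 1.42) and 1.17 for mt-Co1 (1.03 to 1.40). It was 0.852 for mt-Co3 (0.827 to 0.967) and 0.916 for mt-Co2 (0.856 to 0.974). The classes of 1 library share its preparation, so they are not 10 independent observations.

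The remaining mitochondrial genes moved less or not in 1 direction. mt-Atp6 had a lower share in 9 of 10 classes, with somatotroph-like cells at 1.0134 as the exception. mt-Nd1, mt-Nd3 and mt-Cytb had a lower share in 7 and mt-Nd2 in 6. mt-Atp8, which overlaps mt-Atp6, had a higher share in 6. Thus 4 of the 7 complex I genes of this genome stood higher in every class and the other 3 did not.

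In somatotroph-like cells mt-Nd5 made up 1.22% of mitochondrial UMIs at 2 months and 2.48% at 20 months, a ratio of 2.04 (1.99 to 2.08). mt-Nd4l stood at 0.710% and 1.42% (ratio 2.00). mt-Nd6, the gene of the minus strand, stood at 0.105% and 0.299% (ratio 2.84, 2.66 to 3.04). mt-Nd4 stood at 5.58% and 7.41% (1.33). On the opposite side, mt-Co3 stood at 24.4% and 20.4% and mt-Cytb, the mitochondrial subunit of complex III, at 12.7% and 11.1%. The genes with the largest share ratios in somatotroph-like cells were also read cell by cell. Their shift between the ages is already contained in those ratios, so it is no separate evidence. Among cells with at least 100 mitochondrial UMIs, mt-Nd4l, mt-Nd5 and mt-Nd6 together made up a median of 1.87% in 3972 young somatotroph-like cells (quartiles 1.35% and 2.52%) and 4.09% in 1075 old ones (quartiles 3.15% and 5.01%). The interquartile ranges of the ages lay apart in 6 of the 10 classes, namely somatotroph-like, corticotroph-like, lactotroph-like, stem cell-like, pituicyte-like and monocyte-like. Cells of 1 pooled library are not replicates of an age, so these ranges only describe the spread over cells.

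**Figure D3:**
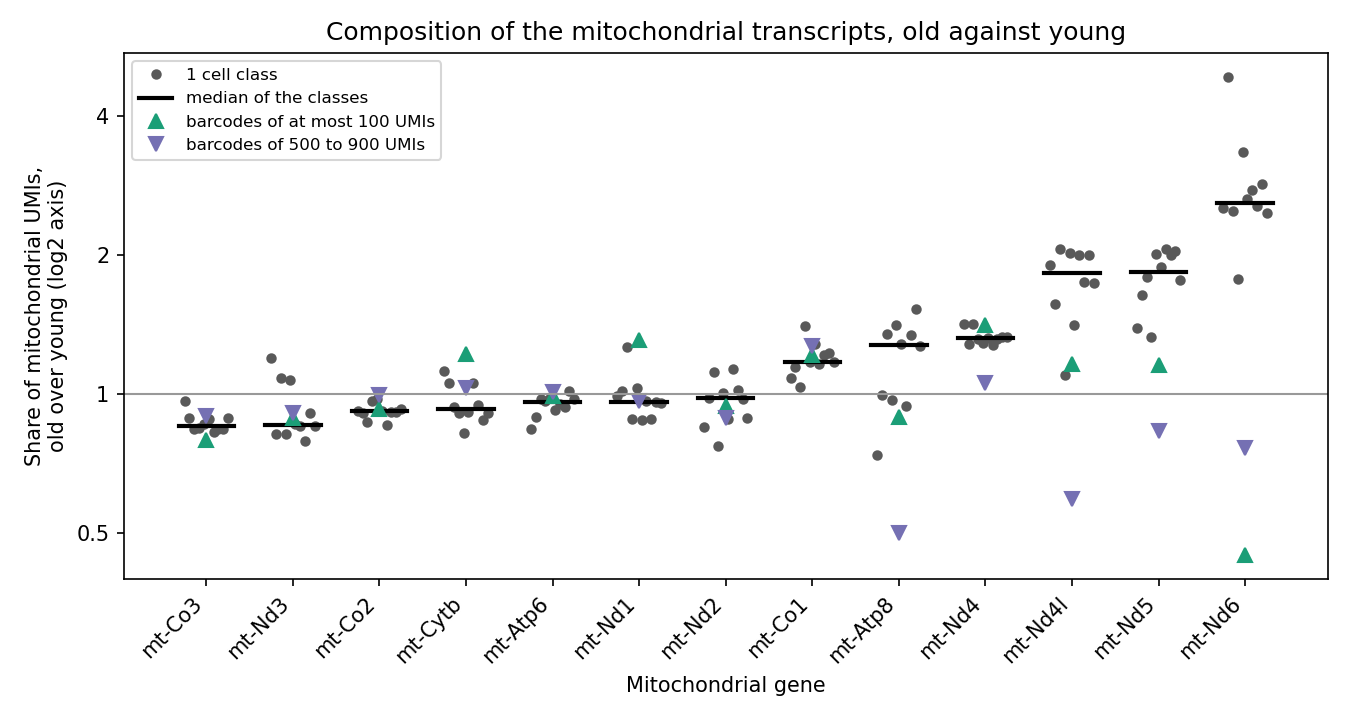
Share of each mitochondrial gene among mitochondrial UMIs, old over young, on a log2 axis, with a grey point per cell class, a black line at the median of the classes, and triangles for barcodes of at most 100 UMIs and of 500 to 900 UMIs. All 10 classes lie above 1 for mt-Nd4, mt-Nd4l, mt-Nd5, mt-Nd6 and mt-Co1, and below 1 for mt-Co2 and mt-Co3.

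The make-up of free RNA was measured beside that of the cells. In the 5545 old barcodes set aside as free RNA, mt-Nd5 made up 0.871%, mt-Nd4l 0.289% and mt-Nd6 0.0356% of mitochondrial UMIs, all below the values of old cells. In empty droplets of at most 100 UMIs the share ratio was 1.15 for mt-Nd5, 1.16 for mt-Nd4l and 0.447 for mt-Nd6. The ratio of mt-Nd4 there, 1.41, and that of mt-Co1, 1.21, were as large as in cells, and that of mt-Co3 was 0.793. In barcodes of 500 to 900 UMIs, below the limit set for cells, the ratio was 0.829 for mt-Nd5, 1.06 for mt-Nd4 and 1.27 for mt-Co1. The differences of mt-Nd4, mt-Co1, mt-Co3 and mt-Co2 (0.926) were also present in the emptiest droplets, whereas those of mt-Nd4l, mt-Nd5 and mt-Nd6 were small or, for mt-Nd6, turned the other way. The share ratios of mt-Nd5 in the 4 somatotroph-like clusters were 1.96, 2.04, 1.49 and 2.14. In 2 classes too small for the comparison, melanotroph-like and gonadotroph-like cells, they were 1.86 and 2.21. Over 12 other settings the somatotroph-like ratio stayed between 1.96 and 2.25 for mt-Nd5, between 1.94 and 2.25 for mt-Nd4l and between 2.64 and 3.59 for mt-Nd6. Capture, amplification and sequencing of the 2 libraries were not replicated, and their part in the result was not tested.

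On the CPM scale the same genes led. mt-Nd6 was at 77.6 CPM in young and 183 CPM in old somatotroph-like cells (ratio 2.36, 2.21 to 2.52), mt-Nd5 at 899 and 1518 CPM (1.69) and mt-Nd4l at 524 and 868.5 CPM (1.66). These 3 were the only members, of 77 nuclear and 13 mitochondrial ones measured, that stood at least 1.5-fold higher in that class, where 9.03% of 13222 genes did. mt-Nd6 passed 1.5-fold in 10 of 10 classes, mt-Nd5 in 9 and mt-Nd4l in 7, beside 7.29% of genes in stem cell-like and up to 20.8% in B cell-like cells. The highest ratio of mt-Nd6 was that of T or NK cell-like cells, 4.98 (2.65 to 10.3), on 11 young and 88 old UMIs. The mitochondrial genes with the lowest ratios in somatotroph-like cells were mt-Co3, at 17975 and 12477 CPM (0.694), and mt-Cytb, at 9373 and 6814 CPM (0.727). mt-Co1, at 9972 and 10113 CPM (ratio 1.014), and mt-Nd4, at 4116 and 4536 CPM (1.1), differed little, and mt-Atp8 stood at 189 and 239 CPM (1.26). The other 5, mt-Nd1, mt-Nd2, mt-Nd3, mt-Co2 and mt-Atp6, had ratios between 0.755 and 0.840.

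Summed over the 13 genes, mitochondrial CPM was lower in the old library in 6 of 10 classes and higher in 4. The ratio was 0.797 in pituicyte-like, 0.829 in somatotroph-like, 0.95 in stem cell-like, 0.956 in corticotroph-like, 0.975 in macrophage-like and 0.979 in lactotroph-like cells. It was 1.03 in T or NK cell-like, 1.08 in endothelial cell-like, 1.14 in monocyte-like and 1.20 in B cell-like cells. Several of these directions depended on the setting. In B cell-like cells the ratio fell below 1 in 1 of 16 settings (0.977 with a minimum of 1000 UMIs). In endothelial cell-like cells it did so in 2 of 17 (0.971 without doublet removal). In monocyte-like cells it did so in 1 of 14 (0.999 with free RNA of 500 to 900 UMIs subtracted). Corticotroph-like cells turned in 2 of 17, and lactotroph-like cells stood at 0.764 without a mitochondrial limit. With all UMIs as the total the ratio was 0.991 in somatotroph-like cells and turned to 1.087 in lactotroph-like cells, and without ribosomal protein genes it turned to 0.958 in T or NK cell-like cells, which went the other way in 8 of 17 settings. Hormone transcripts took 44.3% of UMIs in young and 34.2% in old somatotroph-like cells.

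The nuclear members stood slightly lower in the old library in most classes. In somatotroph-like cells 67 of the 77 measured nuclear members had a ratio below 1 and 10 had one above, with a median log2 ratio of -0.14 against 0.01 over all 13222 measured genes. Their sum was 19787 CPM in the young and 17627 CPM in the old library, a ratio of 0.891 (0.886 to 0.896). Taken as a share of all UMIs the ratio was 1.06, so the direction turned with the hormone share. Mitochondrial UMIs per nuclear member UMI were 3.73 at 2 months and 3.47 at 20 months (ratio 0.931), and this direction turned under 3 other settings, such as 1.04 with a mitochondrial limit of 10% per cell. A single nuclear member, Atp5g1, was at least 1.5-fold lower and none was at least 1.5-fold higher; over all measured genes 7.23% were lower by that much. Malat1 differed as well, from 2.35% to 3.55% of UMIs.

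By complex, all 17 genes of the ATP synthase had a ratio below 1 in somatotroph-like cells, and its sum was 6713 CPM in the young and 5730 CPM in the old library (0.854). Complex I, the NADH dehydrogenase, had 32 of 35 genes below 1 (sum 6318 and 5699 CPM, ratio 0.902), and complex III, the cytochrome bc1 complex, 7 of 8 (1989 and 1733 CPM, 0.872). Complex II, succinate dehydrogenase, had 3 of 4 (361 and 342 CPM, 0.95), and complex IV, cytochrome oxidase, 8 of 12 (4334 and 4046 CPM, 0.934). Cycs, the mobile electron carrier, was at 73.4 and 76.0 CPM (1.04, 0.944 to 1.13), which does not differ beyond counting error. The members with the highest CPM of each complex were Ndufa13 at 347 and 297 CPM (0.856), Sdha at 143 and 151 CPM (1.06), Uqcrh at 626 and 486 CPM (0.777), Cox8a at 823 and 783 CPM (0.951) and Atp5g1. Sdha, the catalytic flavoprotein of complex II, was the 1 gene of its complex above 1.

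Atp5g1 counted 857 CPM in young somatotroph-like cells and 549 CPM in old ones, with a ratio of 0.640 (0.620 to 0.661). Its paralogs, whose promoters are printed beside it above, differed less: Atp5g2 was at 564 and 473 CPM (0.839) and Atp5g3 at 220 and 197 CPM (0.896). Atp5g1 was lower in the old library in 8 of 10 classes, with 771 and 445 CPM in lactotroph-like cells (0.576). It was not lower in corticotroph-like cells, at 488 and 524 CPM (1.07), nor in pituicyte-like cells (1.17). Empty droplets of at most 100 UMIs held 1318 CPM in the young and 943 CPM in the old library, above every class named here, so free RNA differs the same way and its part in the result was not tested. Over the settings tried the somatotroph-like ratio lay between 0.581 and 0.765.

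Somatotroph-like cells differ widely in Malat1, and nuclear member CPM was lower where the Malat1 share was higher. From cells with under 0.5% Malat1 to cells with over 8%, it ran from 28615 down to 6966 in the young and from 31189 down to 8334 in the old library. Mitochondrial CPM rose between these ends, from 46749 to 147559 and from 24574 to 114384, though not at every step. Within bins of equal Malat1 share, the old library had the higher nuclear CPM in 5 of 6 bins and the lower mitochondrial CPM in 6 of 6. The bin from 1% to 2% was the exception for nuclear members, at 21882 and 20408 CPM. Bins of equal UMIs per cell gave another picture for nuclear members, which were lower in the old library in 3 of 5 bins: 20390 and 18077 CPM from 8000 to 16000 UMIs, 22036 and 19626 CPM from 16000 to 32000, and 24900 and 22639 CPM above. In the other 2 bins, below 8000 UMIs, they were higher. Mitochondrial CPM was lower in the old library in all 5. The part of Malat1 and of depth in these differences was not tested. Clusters 1, 2 and 3 of this class had nuclear ratios of 0.815, 0.881 and 0.892 and cluster 10, the one richest in Malat1, 1.09; mitochondrial ratios were 1.09, 0.826, 0.985 and 0.745.

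**Figure D4:**
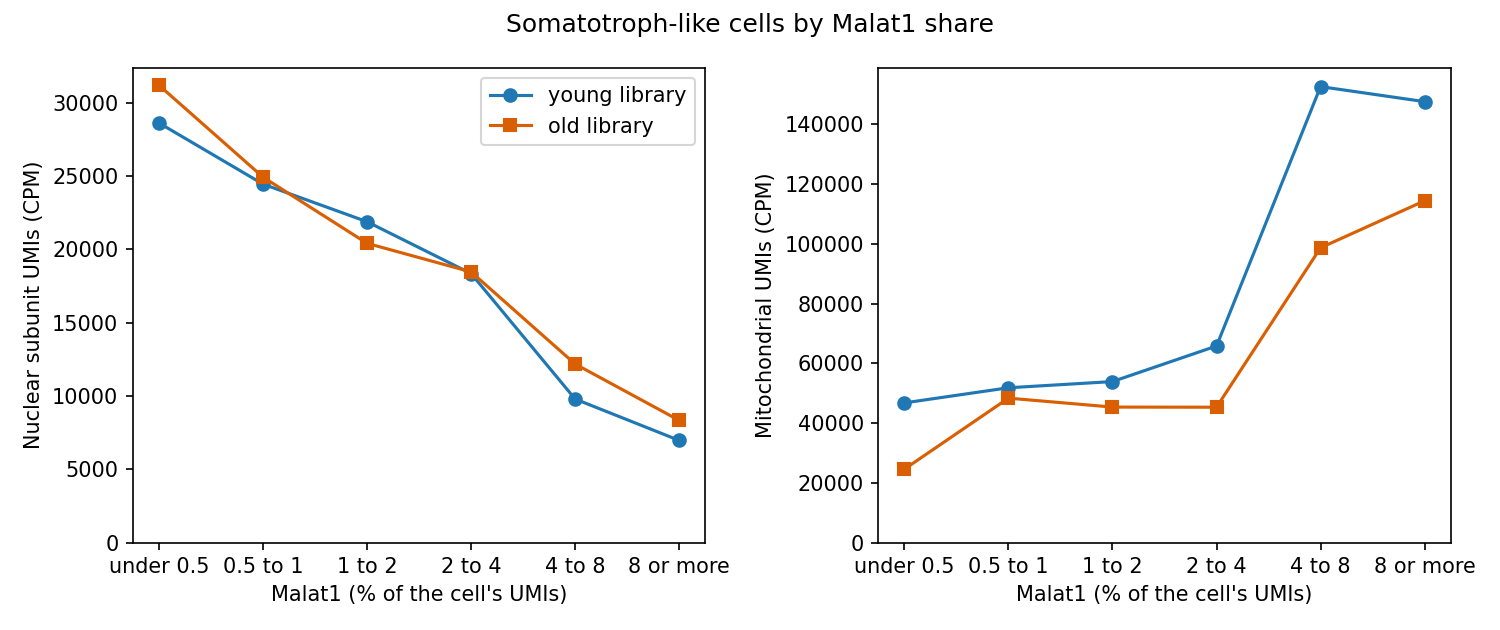
Nuclear and mitochondrial member CPM of somatotroph-like cells in 6 bins of the share of Malat1 in each cell's UMIs, for both libraries, without error bars. In the bin over 8% Malat1 nuclear members stood at 6966 CPM in the young and 8334 CPM in the old library, against 28615 and 31189 CPM in the bin under 0.5%.

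The lactotroph-like class, the prolactin producers, had the lowest nuclear sum ratio, 0.739 (0.728 to 0.750), from 21856 CPM in the young to 16147 CPM in the old library. Of its 76 measured nuclear members 71 were below 1, and 17 were at least 1.5-fold lower where 7.65% of 9107 genes were; the median log2 ratio was -0.45 against 0.13 over all genes. The lowest were Ndufa1, at 307 and 167 CPM (0.544), Atp5g1 and Ndufb5, at 245 and 143 CPM (0.582). Cytosolic ribosomal protein transcripts were lower by a similar ratio, 0.744. The median total was 8747 UMIs per cell in the young and 5083 in the old and Malat1 stood at 3.51% and 5.91%. The part of depth and Malat1 in this result was not tested.

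Endothelial cell-like cells followed with a nuclear sum of 19876 and 15784 CPM (0.794), while ribosomal protein transcripts did not share the direction (1.04). Here 66 of 75 measured nuclear members were below 1 and 17 were at least 1.5-fold lower, beside 14.4% of 3704 genes. The median log2 ratio over all genes of this class was itself below even, at -0.07. Ndufa8, at 371 and 171 CPM (0.460, 0.355 to 0.594), Ndufs8, at 134 and 68.3 CPM (0.511), and Atp5k, at 245 and 143 CPM (0.584), were lowest. They rest on 150 and 105, 54 and 42, and 99 and 88 UMIs. B cell-like cells had a nuclear ratio of 0.874, with 43 of 67 measured members below 1, where the median log2 ratio over all genes was 0.07. Ndufs6, at 147 and 49.4 CPM on 48 and 18 UMIs (0.337, 0.184 to 0.590), was the lowest member of any class, followed there by Ndufc1 (0.531) and Ndufa8 (0.585). In total 4 nuclear members were at least 1.5-fold lower and 1 higher, beside 6.41% and 20.8% of 2029 genes.

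T or NK cell-like cells had a ratio of 0.902 with 49 of 74 below 1, where the median log2 ratio over all genes was 0.14. In this class 3 members, Ndufs8 (0.585), Atp5o (0.636) and Ndufs3 (0.666), were at least 1.5-fold lower, beside 3.5% of 4004 genes. Stem cell-like cells had a ratio of 0.906 with 66 of 79 below 1 and none past 1.5-fold, beside 4.88% of 11209 genes lower. The lowest members of stem cell-like cells, the complex I subunits Ndufs3, Ndufb5 and Ndufb9, had ratios of 0.768, 0.769 and 0.771. The other 4 classes were close to even before any subtraction of free RNA. With free RNA of barcodes of 500 to 900 UMIs subtracted, the macrophage-like ratio of the nuclear sum was 0.741. Under the same subtraction it was 0.777 in T or NK cell-like and 0.670 in B cell-like cells. The lowest ratio under any setting was 0.904 in monocyte-like, 0.964 in pituicyte-like and 0.959 in corticotroph-like cells. The median log2 ratio over all genes was 0.20 in macrophage-like, 0.08 in monocyte-like, 0.03 in pituicyte-like and 0.08 in corticotroph-like cells. Macrophage-like cells had 41 of 76 below 1 (sum ratio 0.984), with Cox5a (0.705), Atp5o (0.747) and Sdhc (0.759) lowest and none at least 1.5-fold lower, beside 3.1% of 8529 genes. Monocyte-like cells had 35 of 75 below 1 (0.989), with Ndufb2 (0.692), Atp5b (0.748) and Ndufb9 (0.762) lowest and 2 nuclear members at least 1.5-fold higher, beside 11.9% of 3589 genes; none was lower by that much, beside 4.37%.

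Pituicyte-like cells had 39 of 77 nuclear members below 1 (0.989). Ndufb4, at 250 and 393 CPM (1.57, 1.23 to 2.02), was the 1 nuclear member at least 1.5-fold higher, beside 14.8% of 4030 genes, while Ndufb10 (0.671), mt-Nd3 (0.628) and mt-Co3 (0.668) were the lowest members. Only mt-Nd3 among these passed 1.5-fold, beside 8.83% of genes lower. Corticotroph-like cells had 31 of 77 below 1 and a sum ratio of 1.03, which turned in 4 of 17 settings, to 0.959 with cells thinned to 2000 UMIs and 0.998 with all UMIs as the total. Their lowest nuclear member was Ndufv1, the subunit that takes electrons from NADH, at 118 and 92.4 CPM (0.781), and the 1 nuclear member past 1.5-fold was Cox8b, beside 8.93% of 11225 genes higher; none was 1.5-fold lower, beside 6.04%. The sum of nuclear members was thus lower in the old library in 9 of 10 classes, and in 3 of these the ratio was at least 0.984. With all UMIs as the total, somatotroph-like (1.06) and monocyte-like cells (1.001) stood above 1.

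**Figure D5:**
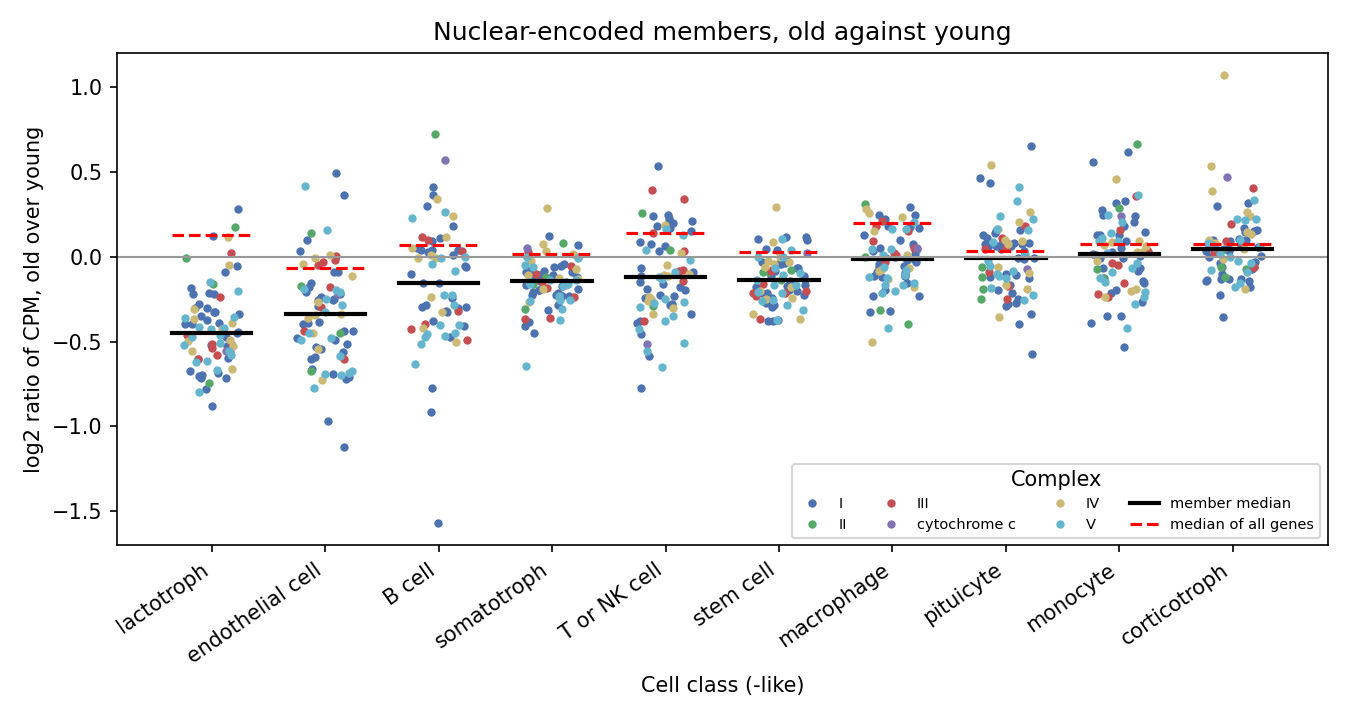
log2 ratio of CPM, old over young, for each measured nuclear member by cell class, coloured by complex, with a black line at the members' median and a dashed red line at the median of all genes. In lactotroph-like cells 71 of 76 members lie below 0, in somatotroph-like cells 67 of 77, and in corticotroph-like cells 31 of 77.

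Across classes, 9 nuclear members were lower in the old library in all 10: Cox4i1, Atp5b, Atp5h, Atp5j, Ndufa12, Ndufb7, Ndufb8, Ndufb10 and Ndufb11. These 9 were picked for that count after their values were seen. They are 9 of the 67 nuclear members measured in every class; of all 1563 genes measured in every class, 3.2% were lower in all 10. Cox4i1, the common isoform of the largest nuclear subunit of complex IV, had ratios from 0.681 in lactotroph-like to 0.883 in macrophage-like cells, with a median of 0.820. Atp5b, the catalytic beta subunit of the ATP synthase, ranged from 0.666 in endothelial cell-like to 0.958 in macrophage-like cells. No nuclear member was higher in all 10, beside 11.5% of these genes. Cox6a1, a small subunit of complex IV, was higher in 9, with a median of 1.16 and endothelial cell-like cells as the exception (0.969). Its isoform partner Cox6a2 was too low to compare.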

How the data were processed

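The files are 2 single-cell count matrices, 1 per pooled library, of raw UMI counts per gene and barcode as deposited by the authors. Cell Ranger 6.0.2 and the build GRCm39 are named in the submitters' processing notes, whereas the headers of the deposited matrices name Cell Ranger version 4; the annotation and strand setting are not given in the sources used here. Each age is 1 library, so no test between ages was made. The members and lists were chosen with earlier results of these data known.

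Barcodes with at least 2000 UMIs, 500 genes and at most 15% mitochondrial UMIs were kept. The limit removed 1323 young and 461 old barcodes. The automatic threshold of the doublet caller marked 0 and 3 barcodes, so the 679 and 766 highest-scoring barcodes were removed, at 0.8% per 1000 barcodes with a cap of 10%. Clustering used scanpy 1.11.5 and igraph 0.11.9 under Python 3.11.15 (3000 variable genes without the members, 40 components, 15 neighbours, Leiden resolution 1) and gave 25 clusters. Clusters were named from marker lists, with at least 3 detected markers, and names rebuilt in this way may differ from those of the study. A cluster correlated over 0.95 with the empty droplets was called free RNA.

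Sums of UMIs for each class in each library were divided by a total without 7 hormone genes and the mitochondrial genes. Ratios have exact conditional Poisson intervals and shares have Clopper-Pearson intervals (scipy 1.17.1). The counting of ratios was tested on simulated data. UMIs are molecules, but the intervals still leave out differences between animals and preparations. Per class, the members named were the 3 with the highest and the 3 with the lowest ratio (in somatotroph-like cells, every measured member past 1.5-fold). Also named were all mitochondrial genes, the highest member of each complex, the isoform sets and the 10 nuclear members with the widest range over classes (at least 50 UMIs in the highest class of each library). Alternatives covered totals, filters, doublets, clustering, free RNA, weights and thinning.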

Additional observations from a re-analysis of the deposited data

Results flagged for a closer look

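The ratio of mitochondrial to nuclear member UMIs, old over young, went in opposite directions in 2 sets of cell classes, and its counting interval was clear of 1 and its direction unchanged under every alternative run for these 5 classes. It was above 1 in B cell-like (1.38), endothelial cell-like (1.36), monocyte-like (1.15) and stem cell-like cells (1.05), and below 1 in pituicyte-like cells (0.806). With 1 library per age the difference between the classes was not tested.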

How the results depend on the processing

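No paired analysis was possible because each age is 1 library and no result comes from a test; leaving out a replicate was not possible for the same reason. With all UMIs as the total, the somatotroph-like ratio of old over young was 1.06 for nuclear members and 0.991 for mitochondrial members, against 0.891 and 0.829; no nuclear member then passed 1.5-fold (0). With ribosomal protein genes out of the total the ratios were 0.883 and 0.822. In the following, nuclear, mitochondrial and mitochondrial per nuclear ratios stand in this order. A mitochondrial limit of 10% gave 0.839, 0.872 and 1.04, a limit of 25% gave 0.901, 0.832 and 0.924, and no limit gave 0.854 and 0.954 for the last pair. A minimum of 1000 UMIs gave 0.871, 0.824 and 0.946, and one of 4000 UMIs gave 0.826 and 0.925 for the last pair. Keeping doublets gave 0.871, 0.848 and 0.974, and a clustering resolution of 0.5 gave 0.864, 0.845 and 0.978. With member genes allowed for clustering the mitochondrial ratio was 0.826. Subtraction of free RNA from the emptiest droplets gave a nuclear ratio of 0.776 and 1.07 mitochondrial per nuclear. Subtraction of free RNA from barcodes of 500 to 900 UMIs gave 0.779, 0.795 and 1.02. Under each of these 2 subtractions, 5 of 76 measured nuclear members were at least 1.5-fold lower and 0 higher. Means over cells gave 0.963, 0.778 and 0.807, cells thinned to 2000 UMIs 0.981, 0.756 and 0.771, and clusters weighted as in the young library 0.879, 0.861 and 0.979. Leaving out clusters poor in Malat1, chosen after seeing the data, gave 0.864, 0.847 and 0.980. At a smaller fold than 1.5, 7 nuclear members passed, and at 2-fold 0. The cause of these shifts was not tested beyond the construction of each setting. The highest over the lowest mitochondrial share of the classes was 3.42, and became 4.82 without a mitochondrial limit and 4.36 by medians over cells. The counts of classes with a higher share of mt-Nd4, mt-Nd4l, mt-Nd5 and mt-Nd6, also added after seeing the data, covered every compared class under each of the 12 settings that could move them, except for mt-Nd4l with a limit of 25% (10 of 11 classes) and with free RNA of the emptiest droplets subtracted (9 of 10). Members under 50 UMIs in a class were not compared, and classes of under 100 cells limit the precision most.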

Other observations

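Other mitochondrial gene groups of somatotroph-like cells also stood mostly below 1, old over young, with small differences. Of the 75 genes of the mitochondrial ribosome, which translates the 13 mitochondrial members, 60 were lower and 15 higher, with a median log2 ratio of -0.13 and 1 gene at least 1.5-fold lower. Mitochondrial import and carrier genes had 15 of 19 lower (median -0.11), antioxidant and uncoupling genes 11 of 14 (median -0.14), citric acid cycle genes 12 of 17 (median -0.09), and regulators of mitochondrial transcription and biogenesis 9 of 14 (median -0.09). Assembly factors were split: those of complex I were lower for 6 of 14 (median 0.06) and those of complexes II to V for 19 of 30 (median -0.08). Of 5 measured subunits and carriers that the symbol rule does not reach, 4 were lower (median -0.27). Glycolysis genes were lower for 10 of 19 (median -0.04) and cytosolic ribosomal protein genes for 55 of 81 (median -0.06), beside a median of 0.01 over all 13222 genes.

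In lactotroph-like cells the mitochondrial ribosome had 57 of 73 genes lower (median -0.27) and the cytosolic ribosome 79 of 81 (median -0.45). At least 1.5-fold lower were 7 and 13 of these genes, beside 7.65% of all 9107 genes measured in that class. The share of mt-Nd5 can also be read against 1 abundant gene: per 100 mt-Co3 UMIs there were 5.00 mt-Nd5 UMIs in young and 12.2 in old somatotroph-like cells, and 2.70 and 3.93 in empty droplets of at most 100 UMIs. In barcodes of 500 to 900 UMIs there were 5.17 and 4.78.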
